A study of Homo sapiens with 4 samples.

Results

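Transcript levels of 9 genes of the nuclear lamina and of the HMGB family were followed in MDA-MB-231 cells after 24 h with RB-BC, set against DMSO. The 9 genes are the rows of the deposited count table whose Ensembl identifier carries the symbol LMNA, LMNB1, LMNB2, LBR, TMPO, EMD, HMGB1, HMGB2 or HMGB3, which makes 9 of 20263 rows. MDA-MB-231 is an established human breast cancer line without oestrogen or progesterone receptor and without HER2 amplification. Per the series title RB-BC is a derivative of ribociclib, an inhibitor of the cell cycle kinases CDK4 and CDK6. Cells given RB-BC were sequenced in 2 libraries and cells given the vehicle DMSO in 2. All were of the same line, grown with 10% serum, and no dose is stated in the labels. The protocol text names the agent Rib_CA where the sample titles name RB-BC, and no label says that both names mean 1 compound.

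The lamina is a meshwork of intermediate filament proteins under the inner nuclear membrane. LMNA encodes the A-type lamins A and C, and LMNB1 and LMNB2 encode the B-type lamins, which stay attached to the membrane through a farnesyl group. LBR, emerin (EMD) and the membrane-bound forms of LAP2 (TMPO) tie chromatin and lamins to that membrane. The HMGB proteins bend DNA inside the nucleus, and HMGB1 also acts as an alarm signal once it leaves the cell. Loss of lamin B1 transcript is widely used as a marker of senescence, a lasting exit from the cell cycle, and loss of nuclear HMGB1 and of HMGB2 has been tied to the same state. LMNB1, TMPO and HMGB2 are also known to be more abundant in cycling cells.

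In cells given RB-BC the transcripts of LMNB1, TMPO and HMGB3 fell, LMNB1 the furthest of the 9, to 46.0% of its DMSO level. By edgeR's quasi-likelihood test 3 of the 9 genes were lower at an adjusted p under 0.05 and 0 were higher. Of all 13744 genes tested, 7.53% were called lower and 8.58% higher. For LMNA, LMNB2, HMGB1 and HMGB2 the levels of the 2 RB-BC libraries lay below those of the 2 DMSO libraries, with edgeR adjusted p between 0.0514 and 0.0578. LBR was also lower without passing the test, and EMD was the only 1 of the 9 with a higher mean in RB-BC. At an unadjusted p under 0.05, 8 of the 9 were lower and 0 higher, against 17% lower and 18.2% higher of all tested genes. Of the 9, 0 were called higher by DESeq2 or limma-voom, which called 11.9% and 8.92% of all tested genes higher. The median log2 fold change of the 9 was −0.71, beside −0.0016 over all tested genes.

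The number of the 9 called lower depended on the fit, as did the number over all genes. It was 7 with DESeq2, where 11.5% of all tested genes were lower, 4 with limma-voom (7.68%) and 1 with library totals alone as the scaling (3.02%). It was 6 without DMSO 1 (11.6% of all tested genes lower) and 8 without DMSO 2 (12.5%), where EMD was also called higher (13.5% of all higher). It was 0 without RB-BC 1 (0.402% of all lower) and 0 without RB-BC 2 (0.99%), fits in which the DMSO pair alone sets the spread. In the fits without DMSO 1 or DMSO 2 the RB-BC pair alone sets the spread. Over all tested genes that pair lay closer together, as it did for LMNA, LBR, EMD, HMGB1 and HMGB3. For LMNB1, LMNB2, TMPO and HMGB2 the DMSO pair was the closer. Calls gained without DMSO 1 or DMSO 2 do not make a change firmer. The estimates themselves kept their direction for all 9 genes in each of the 12 alternatives tried.

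Library totals ran from 34774542 to 42786422 counts. Mitochondrially encoded genes took 10.1% and 10.3% of the counts in RB-BC 1 and RB-BC 2, against 8.68% in DMSO 1 and 21.7% in DMSO 2, so DMSO 2 stood apart. Of 8 markers of the line, 8 had counts in every library, among them VIM, CD44 and AXL at 447 CPM or more and S100A4, the lowest, at 5.26 to 8.67 CPM (CPM is a gene's counts relative to its library's total, with totals scaled by edgeR's TMM factors). Summed, the 8 were at 10247 and 11029 CPM in RB-BC, against 8634 and 10573 CPM in DMSO. The 8 luminal or epithelial markers summed to 246 and 238 CPM in RB-BC, against 294 and 329 CPM in DMSO, most of it from the keratin gene KRT8, while CDH1 was at 0 to 0.0531 CPM. The 5 leukocyte markers summed to 1.20 and 1.51 CPM in RB-BC, against 0.637 and 0.448 CPM in DMSO, with CD3E at 0 in every library. The part of these markers in the results was not tested. In these bulk libraries fewer cells of a kind and less RNA per cell cannot be told apart. No label says whether the replicates were separate cultures, so p-values measure only how far these libraries lie apart, which may be technical.

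The promoter windows of the 3 genes that fell, and of EMD as the gene with a higher mean, are shown because they hold the sequence next to the start of each transcript. Each is the 250 bases before an annotated start in RefSeq, 5′ to 3′, and capitals mark every match, on either strand, to the motifs given after them. For genes with several annotated starts, the first listed window with a CCAAT box was taken.
LMNB1 promoter, GRCh38.p14, chr5:126776886-126777135, plus strand: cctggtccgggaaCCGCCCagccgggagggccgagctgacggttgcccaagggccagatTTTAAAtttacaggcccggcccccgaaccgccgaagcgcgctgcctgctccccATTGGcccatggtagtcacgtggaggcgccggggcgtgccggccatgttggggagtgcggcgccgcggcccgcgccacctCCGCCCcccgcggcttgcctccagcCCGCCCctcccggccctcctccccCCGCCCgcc
TMPO promoter, GRCh38.p14, chr12:98515323-98515572, plus strand: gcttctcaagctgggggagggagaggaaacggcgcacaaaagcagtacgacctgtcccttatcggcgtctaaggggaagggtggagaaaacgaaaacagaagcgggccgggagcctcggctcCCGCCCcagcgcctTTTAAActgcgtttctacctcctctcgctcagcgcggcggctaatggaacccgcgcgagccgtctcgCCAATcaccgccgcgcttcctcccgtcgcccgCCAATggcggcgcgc
HMGB3 promoter, GRCh38.p14, chrX:150983085-150983334, plus strand: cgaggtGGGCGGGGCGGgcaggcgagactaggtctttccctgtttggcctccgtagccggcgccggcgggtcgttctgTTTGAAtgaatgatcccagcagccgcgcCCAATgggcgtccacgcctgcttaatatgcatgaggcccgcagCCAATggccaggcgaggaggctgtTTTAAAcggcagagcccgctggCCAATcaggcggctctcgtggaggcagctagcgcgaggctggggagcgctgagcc
EMD promoter, GRCh38.p14, chrX:154379045-154379294, plus strand: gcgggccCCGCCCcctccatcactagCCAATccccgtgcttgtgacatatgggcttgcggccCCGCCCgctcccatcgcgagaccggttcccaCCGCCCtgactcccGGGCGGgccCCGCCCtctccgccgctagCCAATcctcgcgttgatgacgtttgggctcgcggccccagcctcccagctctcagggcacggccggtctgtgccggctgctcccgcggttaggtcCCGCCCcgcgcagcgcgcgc
The RefSeq table held 15 windows for 8 of the 9 genes and was searched for 4 E2F-type motifs (TTTCCCGC, TTTGGCGC, TTTCGCGC and TTTGCCGC), for the CHR-type motif TTTGAA and its variant TTTAAA, for the CCAAT box and for the GC box, GGGCGG. The CHR is an element of many cell cycle promoters. The windows of LMNB1, TMPO and HMGB3 each hold TTTAAA, at 191, 114 and 77 bases before the start in the windows shown. Of the other windows of these genes, that of LMNB1 holds TTTAAA and that of HMGB3 does not. The other window of TMPO overlaps that shown and holds the same TTTAAA site. The CCAAT boxes in the windows shown follow from how those were chosen. Over all windows, TTTAAA is in at least 1 window of 5 of the 8 genes, the others being LMNA and LBR, and in 13.5% of the 27305 genes in the table. CCAAT is in a window of 6 of the 8 genes and of 37.0% of all genes, and GGGCGG in 7 of 8 and in 46.2%. TTTGAA is in 3 of the 8 genes and 16.0% of all. An E2F-type motif was matched in 1 gene, LMNA (TTTCCCGC, which ends within a GC box), and in 3.40% of all genes. EMD holds CCAAT and GC boxes and none of the CHR-type letters. Genes with several windows have more chances to match, and a match is a description of the letters only. The starts in use in these cells were not measured.

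LMNB1 (ENSG00000113368), the gene of lamin B1, was at 53.4 and 58.5 CPM in the RB-BC libraries, against 123 and 120 CPM in the DMSO libraries. Counts were 2317 and 2565 in RB-BC and 4640 and 4026 in DMSO. The groups lay far apart and the libraries of each group close together. LMNB1 averaged 56.0 ± 3.61 CPM in RB-BC and 122 ± 2.20 CPM in DMSO (SD, n = 2 each), and fell by 1.12 on the log2 scale (SE 0.14, 95% interval −1.46 to −0.78, edgeR adjusted p = 0.0105). Only 3.97% of tested genes had a lower log2 fold change. Its value was between −1.19 and −1.05 with any 1 library left out. The call was lost when RB-BC 1 was left out (edgeR adjusted p = 0.107) or RB-BC 2 was (edgeR adjusted p = 0.0573), and over the 12 alternatives the adjusted p ran from 1.16e-09 to 0.107.

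LMNB2 (ENSG00000176619), the gene of the second B-type lamin, was at 400.1 and 346 CPM in RB-BC, against 559 and 566 CPM in DMSO. The groups did not overlap, and RB-BC 1 and RB-BC 2 were further from each other than the DMSO libraries were. The log2 fold change was −0.59 (SE 0.15, 95% interval −0.97 to −0.22, edgeR adjusted p = 0.0514). It passed in 6 of 12 alternatives, among them the fits lacking DMSO 1 (edgeR adjusted p = 0.0381) or DMSO 2 (edgeR adjusted p = 0.0357), with DESeq2 (adjusted p = 0.00325) and with limma-voom (adjusted p = 0.0426), and its adjusted p ran from 0.00325 to 0.387. Exons of LMNB2 overlap those of TIMM13 on the same strand in GENCODE 29, and how shared reads were counted is not known.

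LMNA (ENSG00000160789), the gene of lamins A and C, was at 268 and 265 CPM in RB-BC, against 369 and 504 CPM in DMSO. The RB-BC libraries were nearly equal, while DMSO 2 was above DMSO 1 by 0.45 on the log2 scale. The log2 fold change was −0.71 (SE 0.19, 95% interval −1.18 to −0.25, edgeR adjusted p = 0.0543). Leaving out DMSO 1 gave −0.92 (edgeR adjusted p = 0.0118). Leaving out DMSO 2, the library with the high mitochondrial share, gave −0.47 (edgeR adjusted p = 0.0369). LMNA also passed with DESeq2 (adjusted p = 0.00584) and in none of the other alternatives, over which the adjusted p reached 0.299. With mitochondrially encoded genes removed before scaling its value was −0.71, which bears on the scaling only and not on other ways in which DMSO 2 may differ.

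**Figure D1:**
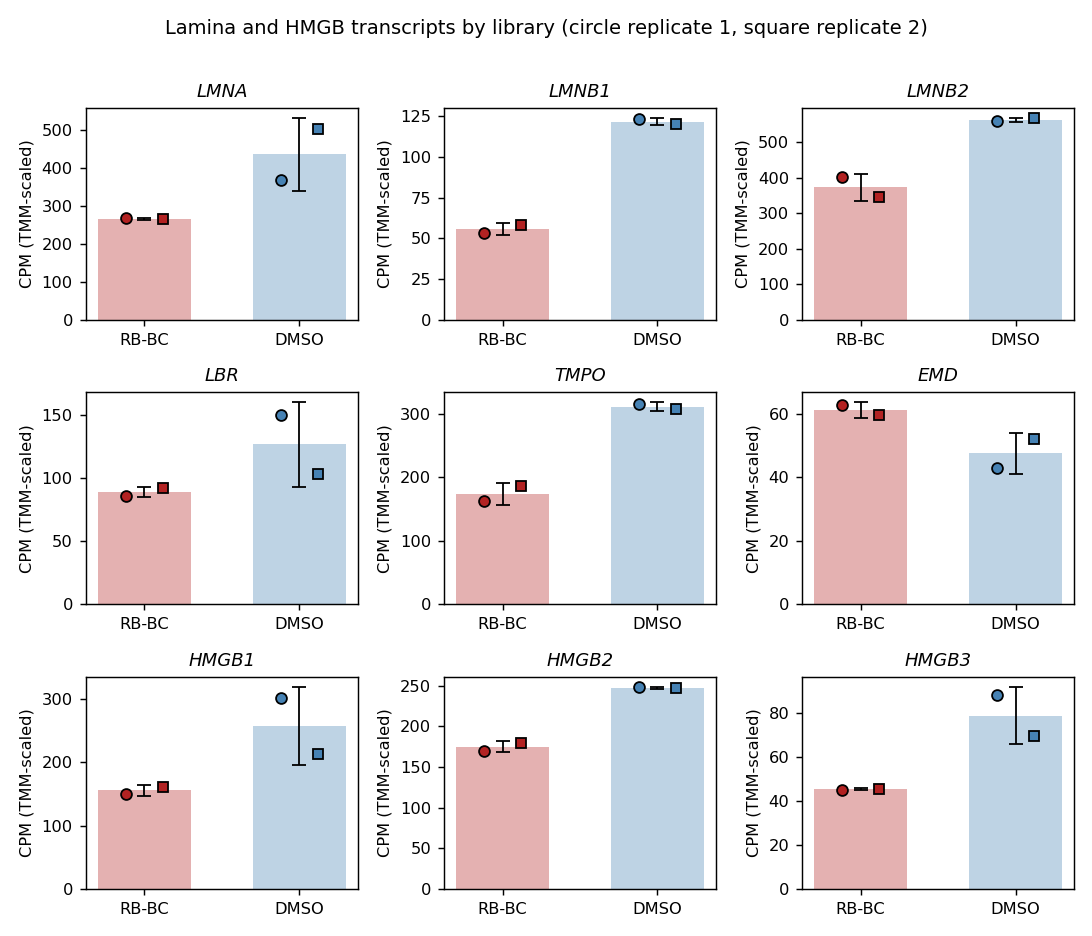
TMM-scaled CPM (y axis, from 0) of the 9 genes in RB-BC and DMSO. Points are libraries (circle replicate 1, square replicate 2), bars are means and error bars are SD (n = 2 each). LMNB1, LMNB2, TMPO and HMGB2 have tightly grouped DMSO libraries, LMNA, LBR, HMGB1 and HMGB3 have widely spaced ones, and EMD alone has its RB-BC libraries on top.

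TMPO (ENSG00000120802), which encodes the LAP2 proteins, was at 162 and 186 CPM in RB-BC, against 316 and 306 CPM in DMSO. No RB-BC library came near the DMSO range. It fell by 0.84 (SE 0.15, 95% interval −1.20 to −0.47, edgeR adjusted p = 0.0205), to 56.0% of its DMSO level. The value stayed between −0.94 and −0.74 with any 1 library left out. The call was lost when RB-BC 1 was left out (edgeR adjusted p = 0.227), when RB-BC 2 was (edgeR adjusted p = 0.112) and when only library totals scaled the counts (edgeR adjusted p = 0.0525), and its adjusted p ran from 1.59e-05 to 0.227. An antisense gene, TMPO-AS1, overlaps its exons and the strand setting of the counting is not known, so reads of the pair cannot be told apart. The table gives 1 count per gene, so the membrane-bound and soluble forms of LAP2 were not separated.

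LBR (ENSG00000143815), a receptor for B-type lamins that is also a sterol reductase, was at 86.3 and 92.2 CPM in RB-BC, against 150.5 and 103 CPM in DMSO. The RB-BC libraries were below both DMSO libraries, DMSO 2 only narrowly. The log2 fold change was −0.51 (SE 0.21, 95% interval −1.01 to −0.0028, edgeR adjusted p = 0.141). Leaving out DMSO 2 gave −0.75, which passed (edgeR adjusted p = 0.0154), and leaving out DMSO 1 gave −0.21 (edgeR adjusted p = 0.246), so its size rests on which DMSO library is used. Over the 12 alternatives the adjusted p ran from 0.0154 to 0.491.

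EMD (ENSG00000102119), the gene of emerin, was at 62.8 and 59.4 CPM in RB-BC, against 42.9 and 52.0 CPM in DMSO. Both RB-BC libraries were above both DMSO libraries. The log2 fold change was 0.37 (SE 0.16, 95% interval −0.014 to 0.74, edgeR adjusted p = 0.153). EMD passed in 1 of 12 alternatives, without DMSO 2, at 0.51 (edgeR adjusted p = 0.0401), and its adjusted p reached 0.557. It was above 0 in all 12.

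HMGB3 (ENSG00000029993), the least abundant of the 3 HMGB transcripts, was at 45.0 and 45.7 CPM in RB-BC, against 88.3 and 69.8 CPM in DMSO. The RB-BC libraries were nearly equal and below both DMSO libraries, with DMSO 2 below DMSO 1 by 0.34 on the log2 scale. It fell by 0.80 (SE 0.16, 95% interval −1.20 to −0.40, edgeR adjusted p = 0.0288), to 57.4% of its DMSO level. The value was −0.62 without DMSO 1 and −0.96 without DMSO 2, and passed in both fits. It failed the test when RB-BC 1 was left out (edgeR adjusted p = 0.210), when RB-BC 2 was (edgeR adjusted p = 0.158) and when only library totals scaled the counts (edgeR adjusted p = 0.0977), and its adjusted p ran from 7.77e-04 to 0.210.

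HMGB1 (ENSG00000189403) was at 149.5 and 161 CPM in RB-BC, against 301 and 214 CPM in DMSO. Both RB-BC libraries were lower, and the DMSO libraries differed by 0.49 on the log2 scale, with DMSO 2 the lower. The log2 fold change was −0.73 (SE 0.20, 95% interval −1.22 to −0.24, edgeR adjusted p = 0.0574). The value was −0.46 when DMSO 1 was left out (edgeR adjusted p = 0.0521). It was −0.95 when DMSO 2 was left out, and passed there (edgeR adjusted p = 0.0100). It also passed with DESeq2 (adjusted p = 0.00825), and over the 12 alternatives the adjusted p ran from 0.00825 to 0.323.

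HMGB2 (ENSG00000164104) was at 170.2 and 180.0 CPM in RB-BC, against 249 and 247 CPM in DMSO. The DMSO libraries were almost equal and the groups did not overlap. The log2 fold change was −0.50 (SE 0.14, 95% interval −0.84 to −0.16, edgeR adjusted p = 0.0578). The estimate moved little between libraries, from −0.54 to −0.46 with any 1 left out. It passed in 3 of 12 alternatives, namely DESeq2 (adjusted p = 0.00804) and without DMSO 1 or DMSO 2 (edgeR adjusted p = 0.0411 and 0.0342), and its adjusted p reached 0.428. GENCODE 29 names 48 pseudogenes after HMGB1, 29 after HMGB3, 2 after TMPO and 1 after HMGB2, with 0 of them in the count table, and how reads shared with them were treated is not known.

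**Figure D2:**
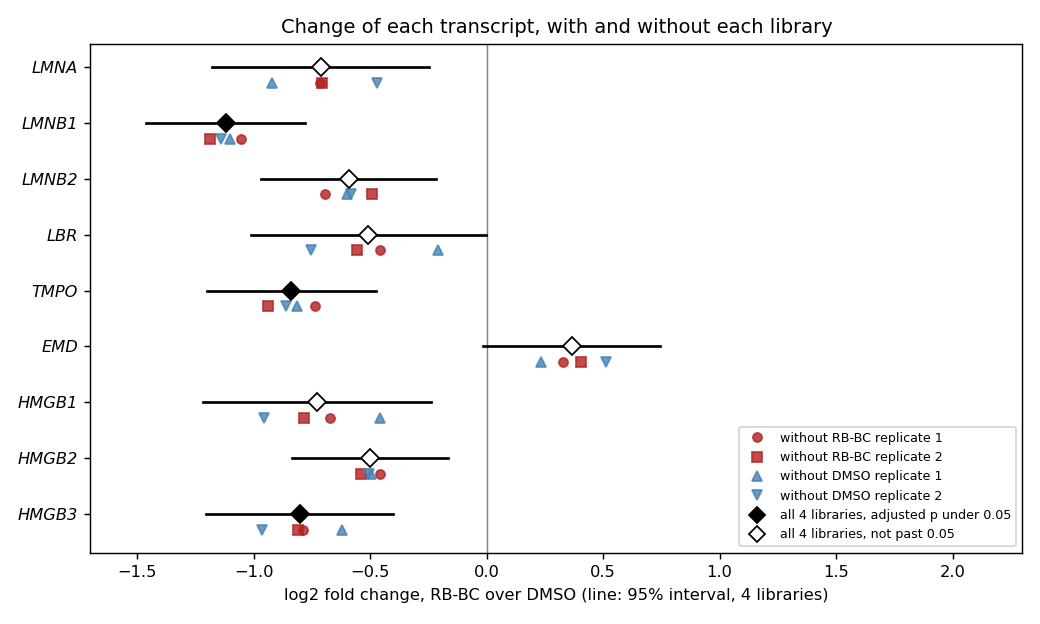
Log2 fold change of RB-BC over DMSO (x axis) for each of the 9 genes, with its 95% interval from edgeR's model on 4 libraries (black line) and the value with each library left out (small symbols). Filled diamonds passed an adjusted p of 0.05 (LMNB1, TMPO, HMGB3), and open diamonds did not. No small symbol crosses 0, and the values without DMSO 1 and without DMSO 2 are furthest apart for LBR, HMGB1 and LMNA.

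Every one of the 9 genes had groups that did not overlap in CPM, 8 with RB-BC lower and 1, EMD, with RB-BC higher, where 32.1% of all tested genes had non-overlapping groups with RB-BC lower and 33.1% with RB-BC higher. The genes differed in how far apart the DMSO libraries lay. For LMNB1, LMNB2, TMPO and HMGB2 the DMSO libraries differed by at most 0.043 on the log2 scale. For LMNA and EMD DMSO 2 was above DMSO 1, by 0.45 and 0.28, and for LBR, HMGB1 and HMGB3 it was below, by 0.54, 0.49 and 0.34. DMSO 2 is the library with 21.7% mitochondrial counts, and the part of that in these differences was not tested. Between the RB-BC libraries no member differed by more than 0.21.

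Read within a library, the ratio of one gene's counts to another's does not depend on how libraries are scaled. LMNB1 counts were 0.200 and 0.221 of LMNA counts in RB-BC 1 and RB-BC 2, against 0.334 and 0.238 in DMSO 1 and DMSO 2. Lamin B1 transcript was thus lower relative to lamin A/C transcript in both RB-BC libraries, though RB-BC 2 lay close to DMSO 2. The mean log2 ratio was −2.25 ± 0.10 in RB-BC and −1.83 ± 0.35 in DMSO (SD, n = 2 each), a difference of −0.43 that was −0.67 without DMSO 2 and −0.18 without DMSO 1. A two-sided exact permutation test gave p = 0.333, the smallest that 2 against 2 libraries allow.

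LMNB1 counts were 0.134 and 0.169 of LMNB2 counts in RB-BC, against 0.221 and 0.212 in DMSO. Among the B-type lamins, LMNB1 was lower relative to LMNB2 in both RB-BC libraries than in either DMSO library. The log2 difference was −0.53 (exact permutation p = 0.333), and it was −0.70 without RB-BC 2 and −0.36 without RB-BC 1. HMGB2 counts were 1.14 and 1.12 times HMGB1 counts in RB-BC, against 0.826 and 1.16 times in DMSO, so these groups overlapped (exact permutation p = 1). The log2 difference for HMGB2 over HMGB1 was 0.21, and it was −0.036 without DMSO 1 and 0.45 without DMSO 2. HMGB2 counts were 3.78 and 3.94 times HMGB3 counts in RB-BC, against 2.82 and 3.54 times in DMSO, with no overlap. That log2 difference was 0.29 (exact permutation p = 0.333), and it was 0.12 without DMSO 1 and 0.46 without DMSO 2. With 4 ratios tested and none able to pass 0.05, adjustment over them leaves none past it.

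**Figure D3:**
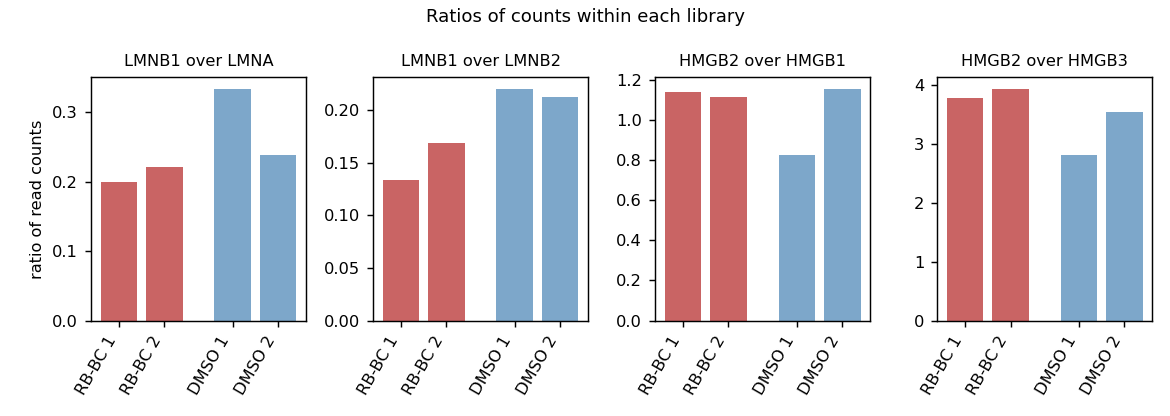
Ratio of read counts of 1 gene to another within each library (y axes, from 0), for 4 pairs, with RB-BC libraries in red and DMSO libraries in blue. LMNB1 is lower relative to LMNA and to LMNB2 in both RB-BC libraries, and the HMGB2 to HMGB1 ratio of DMSO 2 (1.16) lies above those of RB-BC 1 (1.14) and RB-BC 2 (1.12).

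Levels of different genes were compared as CPM per kilobase, using the summed exon length of each gene in GENCODE 29, which overstates the length of genes with many isoforms. In RB-BC the order of mean levels was LMNB2 (68.7 CPM per kilobase), HMGB2 (63.1), LMNA (38.1), EMD (30.3), TMPO (20.3), HMGB1 (20.1), LBR (17.0), LMNB1 (15.4) and HMGB3 (11.4). In DMSO it was LMNB2 (103 CPM per kilobase), HMGB2 (89.3), LMNA (62.5), TMPO (36.2), LMNB1 (33.5), HMGB1 (33.3), LBR (24.1), EMD (23.5) and HMGB3 (19.9). LMNB1 stood between TMPO and HMGB1 in DMSO and below LBR in RB-BC, and EMD stood below LBR in DMSO and above TMPO in RB-BC. The library values of LMNB2 and HMGB2 overlapped in RB-BC, as did those of TMPO and HMGB1. In DMSO HMGB1 overlapped with TMPO, with LMNB1 and with LBR, and the values of LBR, EMD and HMGB3 overlapped among themselves. The lowest member in DMSO, HMGB3, was still above 84.7% of tested genes per kilobase.

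Other genes of the nuclear envelope were read beside these. Each list below is to be read beside all tested genes, of which edgeR called 7.53% lower and 8.58% higher. DESeq2 called 11.5% and 11.9% of them, and limma-voom 7.68% and 8.92%. Of 16 tested genes of the inner nuclear membrane or associated with the lamina, 3 fell and 0 rose, with a median log2 fold change of −0.40. They were TMEM201, an inner membrane protein that moves with the LINC complex (−1.10, edgeR adjusted p = 0.0216), CBX1, the heterochromatin protein HP1β that binds LBR (−0.66, edgeR adjusted p = 0.0384), and ANKLE2, a LEM-domain protein of nuclear envelope reassembly (−0.52, edgeR adjusted p = 0.0487). At an unadjusted p under 0.05, where 17% of all tested genes were lower and 18.2% higher, 8 were lower and 1 higher, DESeq2 called 7 lower and 1 higher, and limma-voom 3 and 0. The number that fell was 0 without RB-BC 1 or RB-BC 2, 7 without DMSO 1, 6 without DMSO 2 and 1 with library totals alone.

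Of 6 tested genes of the LINC complex, which links the nucleus to the cytoskeleton, 0 passed edgeR's test, and 1 was lower and 1 higher at an unadjusted p under 0.05. DESeq2 called 1 lower and limma-voom 0. SYNE2, the gene of nesprin-2, was at −0.68 (edgeR adjusted p = 0.0566) and SUN3, at 1.84 and 1.60 CPM in RB-BC against 0.66 and 1.10 CPM in DMSO, at 0.96 (edgeR adjusted p = 0.132). Without DMSO 2, 1 of the 6 fell. Of 6 lamin processing enzymes 1 fell and 0 rose: ICMT, which methylates the farnesylated end of lamins, was at 72.5 and 80.0 CPM in RB-BC, against 123 and 124 CPM in DMSO (−0.70, edgeR adjusted p = 0.0270). DESeq2 and limma-voom also called 1 lower and 0 higher, 2 were lower and 0 higher at an unadjusted p under 0.05, and the number that fell was 0 with library totals alone or with either RB-BC library left out, and 2 without DMSO 2.

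Nuclear pore subunits, of which 30 were tested, had 5 that fell and 0 that rose, with a median of −0.41. NUP188 of the inner ring was at 113 and 128 CPM in RB-BC, against 256 and 262 CPM in DMSO (−1.10, edgeR adjusted p = 0.0114). NDC1, a membrane-spanning subunit (−0.80, edgeR adjusted p = 0.0193), NUP35 of the inner ring (−1.01, edgeR adjusted p = 0.0320) and NUP50 (−0.63, edgeR adjusted p = 0.0387) also fell. At an unadjusted p under 0.05, where 17% of all tested genes were lower, 12 were lower and 0 higher. DESeq2 called 11 lower and limma-voom 5, with 0 higher by either. The number that fell was 0 without RB-BC 1 or RB-BC 2, 16 without DMSO 2 and 1 with library totals alone.

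Among 16 other high mobility group genes 2 fell and 2 rose, with a median of −0.20. That is 12.5% each way, against 7.53% lower and 8.58% higher of all tested genes. HMGA1, an architectural protein that binds the minor groove, was at 7542 and 7442 CPM in RB-BC, against 3649 and 4711 CPM in DMSO (0.84, edgeR adjusted p = 0.0448). HMG20B, a subunit of a histone demethylase complex, rose by 0.78 (edgeR adjusted p = 0.0229). TFAM, which packages mitochondrial DNA, fell by 0.88 (edgeR adjusted p = 0.0255) and HMGN2, which binds nucleosomes, by 0.58 (edgeR adjusted p = 0.0413). At an unadjusted p under 0.05, 6 were lower and 4 higher, against 17% and 18.2% of all tested genes. DESeq2 called 5 lower and 3 higher, and limma-voom 3 and 3. Without RB-BC 1 or RB-BC 2, 0 of these passed. Without DMSO 2, 4 rose and 4 fell, without DMSO 1, 5 fell, and with library totals alone 2 rose and 0 fell. Of 12 tested receptors and partners of HMGB1, 1 fell and 0 rose, which is 8.33% lower and close to the 7.53% of all tested genes. That gene was PARP1, a nuclear enzyme that modifies HMGB1. It was at 159 and 178 CPM in RB-BC, against 373 and 341 CPM in DMSO (−1.08, edgeR adjusted p = 0.0124). DESeq2 called 2 lower and limma-voom 1, with 0 higher by either, and 2 were lower and 1 higher at an unadjusted p under 0.05. The number that fell was 0 without RB-BC 1 or RB-BC 2, 2 without DMSO 1, where 1 rose, and 3 without DMSO 2. The receptor gene TLR4 was at 38.0 and 38.6 CPM in RB-BC, against 40.0 and 36.7 CPM in DMSO, and was chosen for mention after its values were seen.

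**Figure D4:**
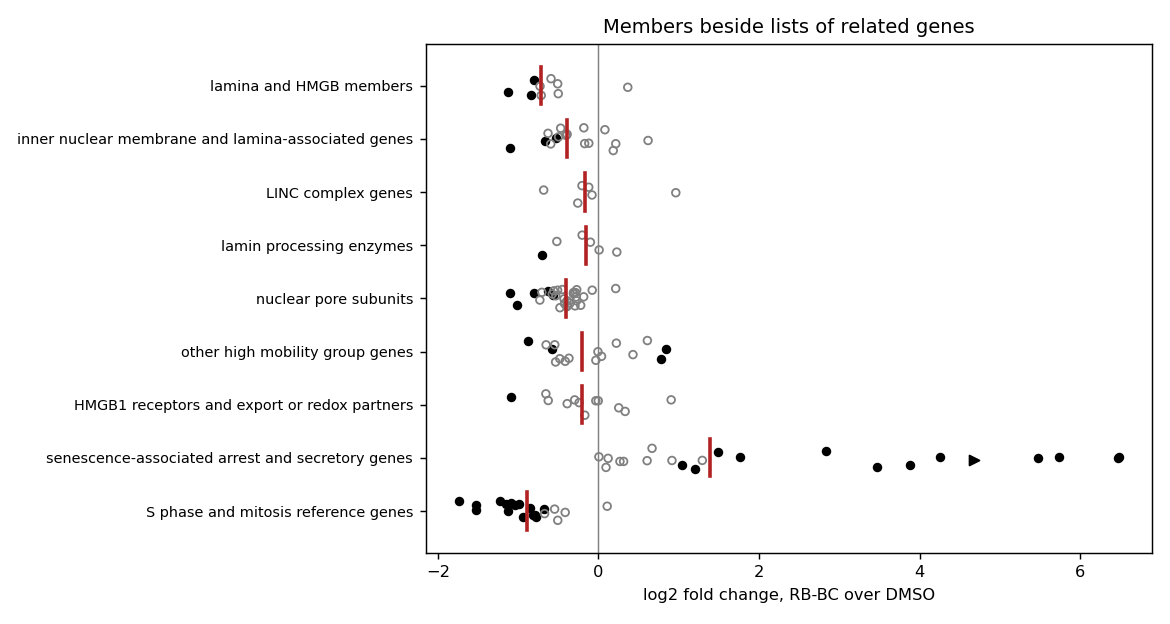
Log2 fold change of RB-BC over DMSO (x axis) for the 9 lamina and HMGB genes and for each list of related genes (rows). Filled points passed edgeR's test at an adjusted p of 0.05, open points did not, red bars are medians and the grey line is the median of all tested genes. The arrowhead is CCL20, with no count in DMSO, drawn at its lower bound. The median of the 9 (−0.71) lies between that of the nuclear pore subunits (−0.41) and that of the S phase and mitosis genes (−0.90).

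Of 20 S phase and mitosis genes, read here only to place the 9, 15 fell and 0 rose, with a median of −0.90. RRM2 (−1.74), MCM6 (−1.52), MKI67 (−1.53) and MCM2 (−1.23) had the smallest adjusted p in edgeR's test (0.00606 to 0.0111). LMNB1, at −1.12, lay among them, with 6 of the 20 below it. At an unadjusted p under 0.05, 17 were lower and 0 higher, and DESeq2 called 16 lower and limma-voom 15, with 0 higher by either. With RB-BC 1 left out 1 of them fell, and with RB-BC 2 left out 4 did. Of 22 tested genes of senescence-associated arrest and secretion, 13 rose and 0 fell, with a median of 1.39. The 4 with the smallest adjusted p were IL1B (6.49), IL1A (4.25), GDF15 (3.89) and CXCL1 (6.47), at edgeR adjusted p = 0.00378 to 0.00452, and IL6 (5.73) and CXCL8 (5.47) rose further than IL1A and GDF15 did. CCL20, with no count in DMSO, was at least 25.7-fold higher, taking 3 counts per DMSO library as the floor, and the median was the same with it at that bound. By DESeq2 15 rose and by limma-voom 14, with 0 lower by either, and at an unadjusted p under 0.05, 16 were higher and 0 lower. CDKN1A, the CDK inhibitor gene of p21, was at 208 and 165 CPM in RB-BC, against 33.6 and 18.7 CPM in DMSO (2.83, edgeR adjusted p = 0.00853). The CDK inhibitor genes CDKN2A and CDKN2B, often raised in senescent cells, had no count in any of the 4 libraries, DMSO included. Whether these cells can express them was not tested, so their lack of counts gives no reading of RB-BC. CDKN1B did not pass (0.094, edgeR adjusted p = 0.727). GLB1, the gene of the lysosomal β-galactosidase whose activity marks senescent cells, was at 91.0 and 107 CPM in RB-BC, against 68.1 and 129 CPM in DMSO (0.0057, edgeR adjusted p = 0.991), and these 4 CDK inhibitor genes, GLB1, IL6 and CXCL8 were chosen for mention after their values were seen.

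The genes whose pattern over the 4 libraries was most like that of LMNB1 were CRIM1, MATN2, UTP15, SH3TC2 and SKIDA1, out of 12208 genes with a mean of at least 50 counts. Likeness was the root mean square difference of centred log2 CPM, which was 0.014 for CRIM1 and 0.030 for SKIDA1. Genes chosen in this way have, by construction, log2 fold changes close to that of the member they resemble. Their values and calls therefore add no separate evidence, here or for HMGB2 below. The first 4 had log2 fold changes of −1.13, −1.12, −1.15 and −1.10 and fell in edgeR's test, while SKIDA1, at −1.11 with an SE of 0.31, did not pass (edgeR adjusted p = 0.0595). For HMGB2 the nearest were SPTSSA, SRSF11, UBN1, IQGAP3 and FOXF2, at distances of 0.010 to 0.018. Of these UBN1 fell (−0.52, edgeR adjusted p = 0.0472) and the other four lay between −0.52 and −0.49 without passing.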

How the data were processed

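Values in the deposited table are whole-number counts for Ensembl genes, with no sign that the authors normalized them. Which aligner, counting program, strand setting and annotation were used was not given in the sources used here. GRCm38 and mm10, both mouse assemblies, are the builds named per the submitters' processing notes, yet all 20263 identifiers are human. No coordinates were therefore taken from those notes. The promoter coordinates above are those of RefSeq on GRCh38.p14. Per the labels' protocols, 1.4 µg of total RNA per sample entered an mRNA library kit. Gene symbols were looked up by Ensembl identifier, for 19761 genes in a symbol table and for 463 in GENCODE release 29.

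Counts were fitted over the whole table with edgeR 4.0.16 in R 4.3.3 (filterByExpr, minimum count 10 and total 15, 13744 genes kept; TMM scaling; quasi-likelihood test, two-sided, Benjamini-Hochberg adjustment, threshold 0.05). The SE is the log2 fold change divided by the square root of F, and 95% intervals use the model's degrees of freedom. Levels are CPM on TMM-scaled library sizes, computed here. Nearest genes used log2 CPM with a prior count of 2. A chi-square test of counts put replicate libraries beyond sampling noise (40.0 per degree of freedom for RB-BC and 251 for DMSO). With so many counts per library it cannot tell separate cultures from technical copies. Each library was taken as 1 sample. The test was tried on simulated data with known changes. It recovered 2 of 49 genes set at 1.5-fold, 18 of 50 at 2-fold, 43 of 48 at 4-fold and 49 of 50 at 8-fold. Among the 13571 genes tested there, 10 were called falsely. At 2-fold or less most genes set to change were missed there. Those data had far fewer genes set to change than the 2214 of 13744 called here in either direction. The Benjamini-Hochberg adjustment depends on that number, so these recovery rates cannot be carried over to the fit of the real libraries. The recovery rate of that fit was not tested, and failing the test does not show that a gene was unchanged. The 9 genes, the gene lists and the rule for named genes (up to 4 per list by adjusted p, or 2 where none passed, and the 5 nearest genes to LMNB1 and to HMGB2) were chosen with earlier results of these data known. As alternatives the fit was repeated with RLE factors, with library totals alone, unfiltered, with genes averaging 50 or more counts, in DESeq2 1.42.0 and in limma-voom (limma 3.58.1), with a replicate block, with mitochondrially encoded genes removed, and with each library left out.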

Additional observations from a re-analysis of the deposited data

How the results depend on the processing

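All 108 values of the 9 genes under 12 alternatives kept their direction, and 84 also kept their side of the threshold, with 8 calls lost and 16 gained. The number of the 9 called lower was 1 with library totals alone and 7 with DESeq2, and 3 with the replicate number as a block, the same as without it. With 1 library left out it ran from 0 (without RB-BC 1 or RB-BC 2) to 8 (without DMSO 2), and the number called higher from 0 to 1. Over all genes, 415 were lower with library totals alone and 1583 with DESeq2, against 1035, and with 1 library left out 56 to 1760 were lower and 149 to 1888 higher. Calls were 65.6% upward with library totals alone and 53.3% with TMM. A fit without 1 RB-BC library takes its spread from the DMSO pair alone, and the lone library is assumed to vary like the others. Likewise, a fit without 1 DMSO library takes its spread from the RB-BC pair alone. Over all tested genes that pair lay closer together, but not for LMNB1, LMNB2, TMPO and HMGB2. Over tested genes, the deviations of same-numbered libraries from their group means had a correlation of −0.03. With 2 libraries a group, that cannot show whether the numbers pair the libraries. The block left the 3 calls in place. It left 1 inner nuclear membrane gene called lower against 3, 3 nuclear pore subunits against 5 and 1 other high mobility group gene against 2.

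The median of the inner nuclear membrane list was −0.33 with library totals alone, −0.37 with limma-voom and −0.37 with the replicate block, and that of the S phase and mitosis list −0.86 with library totals alone. With 1 library left out the medians ran from −0.43 to −0.35 for the inner nuclear membrane list, −0.22 to −0.013 for the LINC complex, −0.31 to −0.071 for other high mobility group genes, 1.11 to 1.87 for senescence-associated genes and −0.97 to −0.89 for S phase and mitosis genes. Medians for HMGB1 receptors and partners ran from −0.28 to 0.036, reversed at 0.036 without DMSO 1, and the HMGB2 over HMGB1 log2 difference, from −0.036 to 0.45, was also reversed without DMSO 1. The cause was not tested. With 2 libraries a group the 95% intervals were wide, and that of LBR ended at −0.0028 while that of EMD began at −0.014.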
